A study of Mus musculus with 18 samples.

Results

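Foxa3 is a forkhead transcription factor with a central DNA-binding domain, a domain N-terminal to it and another C-terminal to it. Here 4 chimeric forms that all keep the Foxa3 DNA-binding domain were compared by the sites where they were found on chromatin. They were all of the constructs with that domain, 4 of the 9 chromatin immunoprecipitation sequencing (ChIP-seq) libraries with a peak list, in a series of 18 samples that also holds 9 input libraries. In 2 of them the N-terminal domain was replaced, by that of Foxa1 in Foxa3-N1 and by that of Foxa2 in Foxa3-N2, and these are called the N side. In the other 2 the C-terminal domain was replaced, by that of Foxa1 in Foxa3-C1 and by that of Foxa2 in Foxa3-C2, and these are called the C side.

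All cells were C57BL/6 mouse embryonic fibroblasts from embryos of 13.5 days post coitum that had been infected with Hnf4alpha, a nuclear receptor of the liver, together with 1 chimeric Foxa form. The labels call the result iHep cells, for induced hepatocyte-like cells. These were whole cultures, so fibroblasts that did not change state may be among them, and the labels do not say how many. The Foxa1 antibody was used for Foxa3-N1 and the Foxa2 antibody for Foxa3-N2, whereas the Foxa3 antibody was used for both C-side constructs. The sides therefore differ in where both terminal domains come from and in the antibody, and these cannot be told apart. Each construct had 1 library, so an exact permutation test of 2 lists against 2 cannot give a two-sided p under 0.333, and no difference below could pass a threshold of 0.05.

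Foxa proteins are known as pioneer factors of the endoderm and the liver: they can bind their sites in closed chromatin and help to open it for other factors such as Hnf4alpha. The DNA-binding domain has a winged-helix fold that resembles that of a linker histone and recognises the forkhead motif. The terminal domains carry transactivation regions, and the C-terminal domain of Foxa1 is known to contact core histones. Foxa3 has the most divergent terminal domains of the 3 proteins.

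The 4 lists differed in length before any site was compared. Foxa3-N1 held 7625 peaks, Foxa3-N2 16543, Foxa3-C1 7533 and Foxa3-C2 3594. Foxa3-N2 stood apart with the longest list and Foxa3-C2 with the shortest, while Foxa3-N1 and Foxa3-C1, on opposite sides, were nearly equal. The mean log2 number of peaks was 13.46 on the N side and 12.35 on the C side (difference 1.11; exact two-sided permutation p = 0.333, the smallest possible). Within the constructs of Foxa1 and Foxa3 the log2 difference was 0.02, and within those of Foxa2 and Foxa3 it was 2.20. It was 0.55 without Foxa3-N2 and 0.58 without Foxa3-C2, against 1.67 without Foxa3-N1 and 1.64 without Foxa3-C1. Sequencing depth is unknown because the files list peaks and not reads, and its part in list length was not tested. Each comparison was therefore made with all peaks and again with the 3594 highest-scoring peaks of each list, as many as the shortest list holds, called equal length below. The score of the last peak kept was 21.9 in Foxa3-N1, 38.8 in Foxa3-N2, 18.4 in Foxa3-C1 and 5.28 in Foxa3-C2, so equal length is not equal stringency.

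With all peaks, the 4 lists merged into 21225 regions, of which 13388 carried a peak in 1 list and 2042 in all 4. Regions of both N-side lists and neither C-side list, called N-side-only, numbered 1874, which is 8.83% of all regions. C-side-only regions, defined the same way, numbered 376 (1.77%). At equal length the order turned: of 7589 regions, 411 (5.42%) were N-side-only and 622 (8.2%) were C-side-only. Regions of all 4 lists then numbered 1024. Leaving out 1 list changes the rule, since a side with 1 list needs presence in that list alone. Without Foxa3-C2 the order with all peaks turned, to 2120 on the N side and 2382 on the C side. At equal length it turned without Foxa3-N1 (1738 and 1067) and without Foxa3-N2 (1304 and 743). The side that lost a list had the higher count at equal length each time. These turns therefore cannot show whether the orders depended on single lists.

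**Figure D1:**
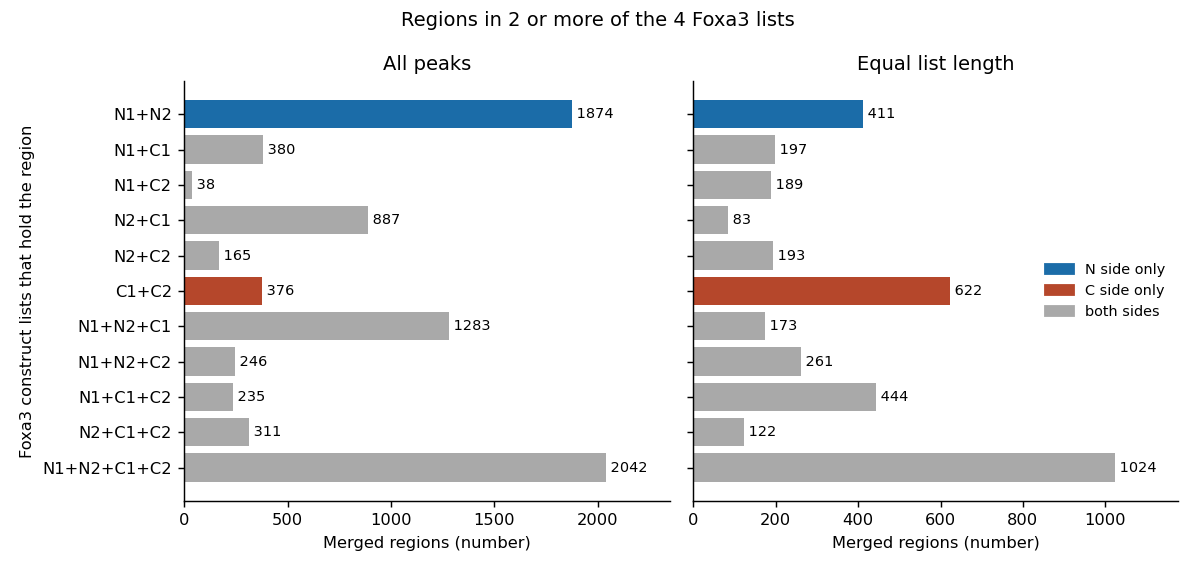
Number of merged regions (horizontal axis) held by each combination of 2 or more of the 4 Foxa3 lists (vertical axis), with all peaks on the left and with the 3594 strongest peaks of each list on the right; the 2 axes have different scales. N-side-only regions fall from 1874 to 411 between the panels and C-side-only regions rise from 376 to 622.

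The plot of regions by list combination shows the change of order with list length. With all peaks, N-side-only regions lay in the middle of the N-side lists. N-side-only regions had a median rank of 4867.5 in Foxa3-N1 and 5888 in Foxa3-N2, where rank 1 is the highest score. The same medians over every region were 3807.5 and 8262, so these regions ranked lower than most in Foxa3-N1 and higher than most in Foxa3-N2. C-side-only regions had a median rank of 2462.5 in Foxa3-C1 and 2266 in Foxa3-C2, against 3763.5 and 1794.5 over every region. Regions found in all 4 lists ranked higher on each list, with medians of 1487.5, 2020.5, 1584.5 and 1301.5 in Foxa3-N1, Foxa3-N2, Foxa3-C1 and Foxa3-C2.

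At equal length, part of the side-only regions were absent from the other side only because of the limit. Of the 411 N-side-only regions, 183 (44.5%) had a weaker peak in the full Foxa3-C1 list. Of the 622 C-side-only regions, 370 (59.5%) had a weaker peak on the N side, 231 of them in Foxa3-N1 and 278 in Foxa3-N2. When absence from the full lists was required, 228 N-side-only and 252 C-side-only regions were left, and these are called strict. The strict counts of the sides are close, but the full Foxa3-C2 list ends at its rank 3594, so no weaker peak could be sought there.

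Most of the regions held by 1 list came from Foxa3-N2. Of its peaks, 9707 (58.7%) met no peak of the other 3 lists, against 19.8% for Foxa3-N1, 26.6% for Foxa3-C1 and 4.59% for Foxa3-C2. Such peaks were weak, with a median rank of 10396 in Foxa3-N2, 5410 in Foxa3-N1 and 5118.5 in Foxa3-C1. Among the 3594 strongest peaks of each list, those absent from the other 3 full lists were 746 in Foxa3-N2 (20.8%), 534 in Foxa3-C1 (14.9%), 314 in Foxa3-N1 (8.74%) and 165 in Foxa3-C2 (4.59%). These shares depend on the length of the lists searched. When all 4 lists were held to equal length, regions of 1 list numbered 1327 in Foxa3-N2, 925 in Foxa3-C1, 893 in Foxa3-N1 and 725 in Foxa3-C2.

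The pairs of lists show how far the side of a construct went with likeness of sites. At equal length Foxa3-C1 and Foxa3-C2 shared 2211 regions, with a Jaccard index (shared regions over regions of either list) of 0.445, the highest of the 6 pairs. Foxa3-N1 and Foxa3-N2 shared 1869, with an index of 0.351. Foxa3-N1 was as near to the C side as to its own: its index was 0.344 with Foxa3-C1 and 0.364 with Foxa3-C2. Foxa3-N2 was farthest from the C side, with indices of 0.242 with Foxa3-C1 and 0.286 with Foxa3-C2. The mean index was 0.398 within sides and 0.309 ± 0.056 (SD, n = 4 pairs) between sides, a difference of 0.089. This difference was 0.181 without Foxa3-N1 and 0.0263 without Foxa3-C1, so its size depended on single lists.

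Score ranks gave the same order of pairs at its ends. In the 1024 regions that all 4 lists held at equal length, the ranks of Foxa3-C1 and Foxa3-C2 had a Spearman correlation of 0.61, described here across regions that share libraries and are not replicates. The value was 0.46 for Foxa3-N1 with Foxa3-N2, below the 0.49 and 0.51 of Foxa3-N1 with Foxa3-C1 and Foxa3-C2. For Foxa3-N2 it was 0.21 with Foxa3-C1 and 0.29 with Foxa3-C2. Where regions were shared by all 4 lists, peak midpoints of a pair lay close together, with pair medians of 26.5 bp (Foxa3-N1 with Foxa3-N2) to 34.5 bp.

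**Figure D2:**
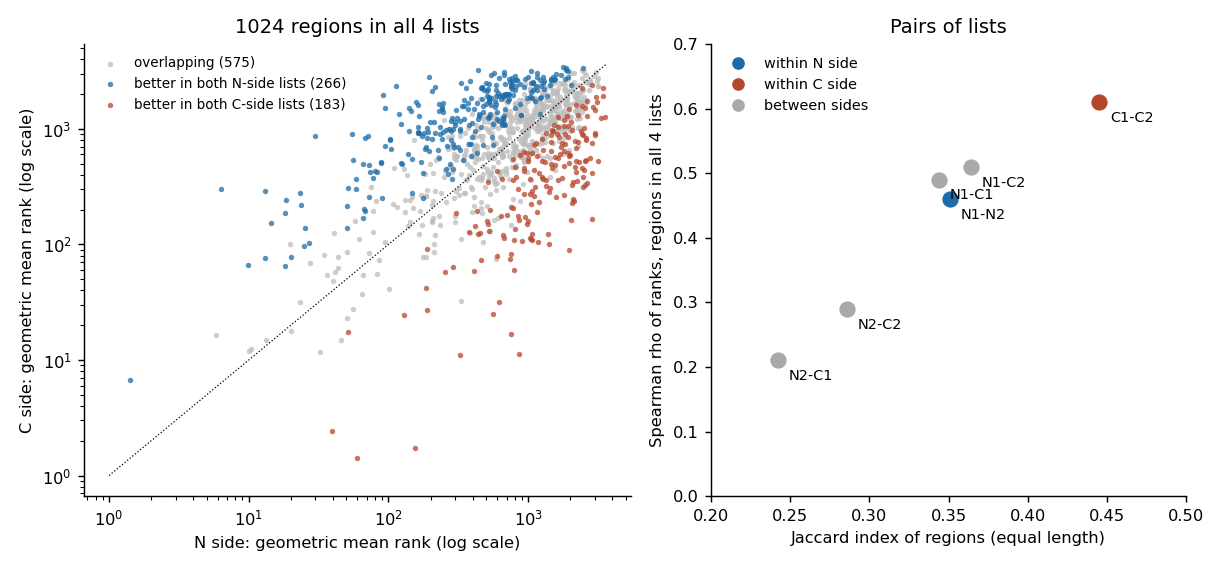
Left, each point is 1 of the 1024 regions of all 4 lists at equal length, with the geometric mean of its 2 score ranks on the N side (horizontal) and on the C side (vertical), both on log scales, where rank 1 is the strongest peak; colours mark regions whose 2 ranks on a side are both better than both ranks of the other. Right, each point is a pair of lists with its Jaccard index of regions and the Spearman correlation of ranks; the pair Foxa3-C1 with Foxa3-C2 lies highest (0.445 and 0.61), and the pair Foxa3-N1 with Foxa3-N2 lies among the pairs between sides.

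Among those 1024 regions, the ranks of the sides did not overlap in 449: 266 (26%) ranked better in both N-side lists than in either C-side list, and 183 (17.9%) ranked better in both C-side lists. In the other 575 regions the ranks of the sides overlapped. Ranks with no link to side would also fail to overlap in part of the regions. If the 4 ranks of a region were exchangeable, that share would be 0.333, split equally between the directions. The lists were not shown to be exchangeable, and the observed shares were not tested against that value. The N-side count was the higher when any of the 4 lists was left out, but came closest without Foxa3-N1 (440 against 424). A side then has 1 list, which makes the rule easier to meet, so these counts do not compare with 266 and 183.

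The region with the largest gap in favour of the N side lay on chromosome 9 (61656146 to 61657087), with rank 8 in Foxa3-N1, 5 in Foxa3-N2, 459 in Foxa3-C1 and 201 in Foxa3-C2. Its scores, as given by the authors, were 311.7 and 334.1 on the N side and 56.16 and 43.28 on the C side. The next ones were on chromosome 3 (73477120 to 73477750; ranks 52 and 17 against 949 and 798) and chromosome 9 (75084525 to 75085227; ranks 86 and 60 against 957 and 790). All 3 carried a peak in each of the 8 Foxa lists, so they were sites common to all constructs whose order differed.

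In the opposite direction, a region on chromosome 18 (11847469 to 11848170) had rank 7 in Foxa3-C1 and 18 in Foxa3-C2, but 343 in Foxa3-N1 and 2183 in Foxa3-N2. The strongest Foxa3-C1 peak of all, on chromosome 14 (47449566 to 47450520), had rank 3 in Foxa3-C2, 48 in Foxa3-N1 and 497 in Foxa3-N2. A region on chromosome 16 (30168878 to 30169447) ranked 141 and 195 on the C side and 2620 and 3168 on the N side. In the first and second of these regions the ranks within the N side also lay far apart, with Foxa3-N1 between Foxa3-N2 and the C side.

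Sites that were strong in every list were also present. The best mean rank, 4.25, was that of a region on chromosome 14 (100044840 to 100046099) and ranked 2, 1, 5 and 9 in Foxa3-N1, Foxa3-N2, Foxa3-C1 and Foxa3-C2. A region on chromosome 3 (113242355 to 113243256) followed with a mean rank of 13 and ranks of 17, 2, 16 and 17. Chromosome 4 held the next (56114986 to 56115750) with ranks of 4, 27, 8 and 19. Another region of chromosome 3 (133906155 to 133906975) had ranks of 50, 8, 24 and 13, and a region on chromosome 9 (61751842 to 61752558) came last, with a mean rank of 30.5. This last region lay near the region with the largest gap in favour of the N side on the same chromosome, yet ranked 59, 3, 56 and 4, with no split between the sides.

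The share of peaks found again in another list fell with rank in every pair. Of the 500 strongest Foxa3-C2 peaks, 99.8% met a peak of the full Foxa3-C1 list, 89.4% one of Foxa3-N1 and 90.4% one of Foxa3-N2. Of the 500 strongest Foxa3-N1 peaks, 97.6% met a Foxa3-N2 peak, 96.2% a Foxa3-C1 peak and 91% a Foxa3-C2 peak. For the strongest peaks of both, the list of the same side recovered the most, although the Wilson intervals of 97.6% (95.9 to 98.6%) and 96.2% (94.1 to 97.6%) overlap and Foxa3-N2 is also the longest list. Among ranks 2001 to 3594, Foxa3-N2 held 76.5% of the Foxa3-N1 peaks, Foxa3-C1 57.9% and Foxa3-C2 35.6%.

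At equal length the recovery of the 500 strongest Foxa3-N1 peaks no longer followed the sides. Foxa3-C1 held 92.2% of them (95% Wilson interval 89.5 to 94.2%), Foxa3-C2 91% (88.2 to 93.2%) and Foxa3-N2 84.6% (81.2 to 87.5%). The 500 strongest Foxa3-C1 peaks showed a split: 94.6% were held by Foxa3-C2 (92.3 to 96.3%), 75.2% by Foxa3-N1 (71.2 to 78.8%) and 61.4% by Foxa3-N2 (57.1 to 65.6%). Wilson intervals here and below cover counting error only. Foxa3-N2 again held the fewest C-side peaks, with 70.2% of the 500 strongest of Foxa3-C2 against 84% in Foxa3-N1.

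**Figure D3:**
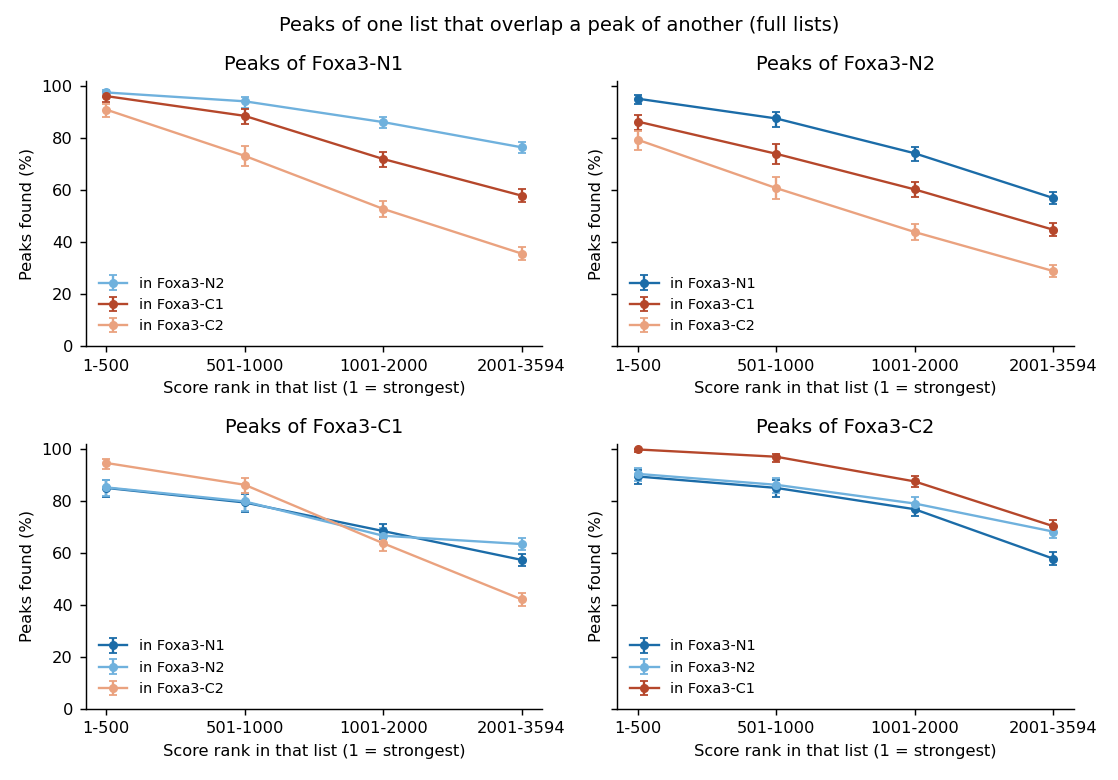
Share of the peaks of each Foxa3 list (1 panel per list) that overlap a peak of another full list, by bins of score rank; points are percentages and bars are 95% Wilson intervals. In the upper panels the dark or light blue line of the same side lies highest, and in the lower right panel 99.8% of the 500 strongest Foxa3-C2 peaks are found in Foxa3-C1.

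The strict N-side-only regions with the best ranks were of moderate strength. The first lay on chromosome 12 (8513721 to 8514354), with rank 483 in Foxa3-N1 and 411 in Foxa3-N2. The others lay on chromosome 9 (67227849 to 67228377; ranks 740 and 526) and chromosome 5 (14198575 to 14199121; ranks 908 and 726). None of the 3 was particular to Foxa3 constructs with a replaced N-terminal domain, since each also had a peak in Foxa1-C3, Foxa2-C3 and Foxa2-N3. Foxa2-N3 was mapped with the Foxa3 antibody, as was the C side.

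The strict C-side-only regions with the best ranks stood higher in their lists, which are shorter. On chromosome 11, the region from 87239944 to 87240849 had rank 50 in Foxa3-C1 and 86 in Foxa3-C2. Its scores were 113.6 and 57.94, and those of the first N-side-only region named above 84.08 and 129.2, so rank and score do not give 1 order. A second region (87256490 to 87257385; ranks 36 and 90) lay close to it, and another (101519267 to 101520275; ranks 103 and 40) farther along the same chromosome. All 3 also carried a peak in Foxa2-N3 and, unlike the N-side-only regions named above, in the library with the Hnf4alpha antibody. That library's title points to a Foxa3 construct but its label of infection to Foxa1 with Hnf4alpha, so it is called here only by its antibody. The best C-side-only regions that did not meet its list, chosen after their values were seen, began with 1 on chromosome 5 (5159987 to 5160640; ranks 105 and 97) that was found in no other list of the series. Chromosome 1 held the next (72301292 to 72302330; ranks 113 and 158), and another lay near the pair on chromosome 11 (87275526 to 87276480; ranks 210 and 85).

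The other 4 Foxa constructs carry the DNA-binding domain of Foxa1 or Foxa2 and were not used to define the side-only regions. Foxa1-C3 and Foxa2-C3 keep their own N-terminal domain, have the C-terminal domain of Foxa3 and were mapped with the antibodies of the N side. Foxa1-N3 and Foxa2-N3 have the N-terminal domain of Foxa3 and were mapped with the Foxa3 antibody, like the C side. Foxa1-C3 held 29% of the 1874 N-side-only regions (27 to 31.1%) and 12.2% of the 376 C-side-only regions (9.3 to 15.9%). Foxa2-C3 held 69.5% (67.4 to 71.5%) and 30.9% (26.4 to 35.7%). In both, N-side-only regions were found more than 2 times as often as C-side-only ones. Of all regions, these lists held 20.7% and 49.5%, between the values of the classes.

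The reverse order held where the N-terminal domain was that of Foxa3. Foxa1-N3, the shortest list with 956 peaks, held 1.71% of the N-side-only regions (1.21 to 2.4%) and 4.52% of the C-side-only regions (2.84 to 7.12%). Foxa2-N3 held 25.3% (23.4 to 27.3%) and 37.8% (33 to 42.8%). Of all regions, Foxa1-N3 held 4.41% and Foxa2-N3 22.3%. The C-side-only share in Foxa1-N3 was therefore at the level of all regions, and the N-side-only share in Foxa2-N3 slightly above it. The log2 ratios of the 2 shares were 1.25 and 1.17 for Foxa1-C3 and Foxa2-C3, and -1.40 and -0.58 for Foxa1-N3 and Foxa2-N3 (exact two-sided permutation p = 0.333, 2 lists against 2, the smallest possible). The 4 lists thus separated by terminal domains and antibody, which cannot be told apart here either.

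With the Foxa3 lists at equal length and the other lists whole, the ratios lay closer to 0. The log2 ratios were 0.87, 0.64 and -0.77 for Foxa1-C3, Foxa2-C3 and Foxa1-N3, and -0.09 for Foxa2-N3, which held 53% of the N-side-only and 56.4% of the C-side-only regions. With the other lists also held to their 956 strongest peaks, the classes lay farther apart: N-side-only and C-side-only shares were 12.2% and 2.25% in Foxa1-C3, 9.98% and 1.77% in Foxa2-C3, and 4.14% and 8.52% in Foxa2-N3. Foxa1-N3 held 4.62% and 7.88%. Of all regions at equal length, the 956 strongest peaks met 12.1% in Foxa1-C3, 12.4% in Foxa2-C3, 12.3% in Foxa2-N3 and 11.8% in Foxa1-N3. The N-side-only share in Foxa1-C3 was at that level, and the other shares of both classes were below it. The order was thus the same at every length tried, whereas the size of the difference was not. With the Foxa3 lists at equal length and the other lists whole, the intervals of the classes overlap in Foxa2-N3 (48.2 to 57.8% and 52.5 to 60.3%). Those in Foxa1-N3 (2.98 to 7.11% and 6.01 to 10.3%) overlap as well.

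For the strict regions and the other lists whole, Foxa1-C3 held 57% of the N-side-only class (50.5 to 63.3%) and 14.7% of the C-side-only class (10.8 to 19.6%), and Foxa2-C3 89.5% and 34.5%. Foxa1-N3 held 3.95% and 5.56% of them, and Foxa2-N3 41.2% and 46%, with intervals that overlap within each list. The lists with the Foxa3 N-terminal domain therefore separated the strict classes less clearly than the others did. Of all regions at equal length, Foxa1-C3 held 44.9%, Foxa2-C3 74.6%, Foxa1-N3 11.8% and Foxa2-N3 48.5%. In Foxa1-N3 and Foxa2-N3 both strict classes were below that share. Regions of all 4 Foxa3 lists at equal length were found most often, in 94.2%, 99.5%, 45.4% and 94.6% of cases in Foxa1-C3, Foxa2-C3, Foxa1-N3 and Foxa2-N3.

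**Figure D4:**
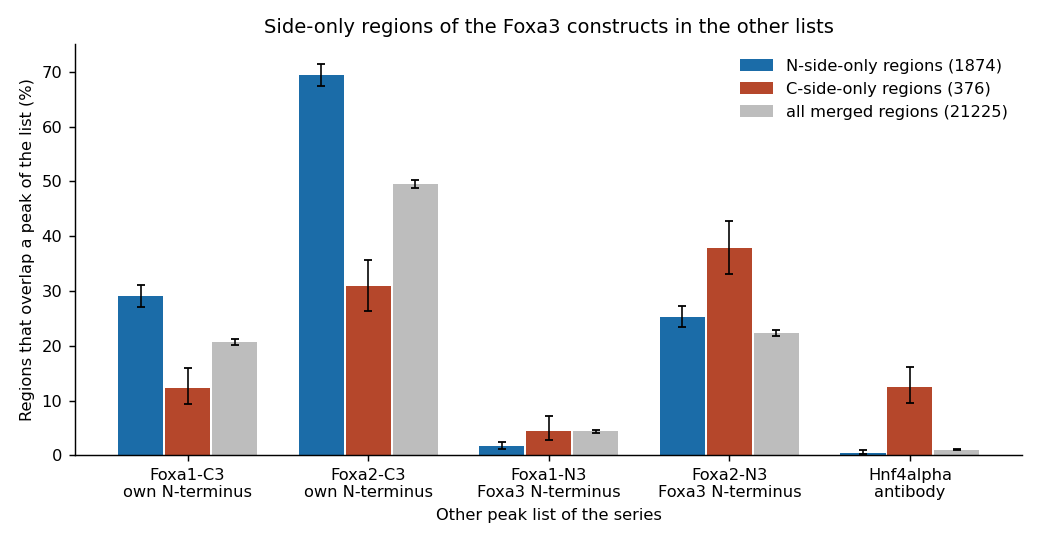
Share of N-side-only, C-side-only and all merged regions (all peaks; bars, with 95% Wilson intervals) that overlap a peak of each of the 5 other peak lists of the series. The blue bar is higher than the red one in Foxa1-C3 and Foxa2-C3 (29% against 12.2% and 69.5% against 30.9%), and lower in Foxa1-N3, Foxa2-N3 and the Hnf4alpha-antibody list (0.48% against 12.5%).

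The list of the Hnf4alpha antibody, with 698 peaks, met the C-side-only regions more often than the rest. It met 47 of 376 of them (12.5%; 9.53 to 16.2%), against 9 of 1874 N-side-only regions (0.48%; 0.253 to 0.91%), 0.637% of the regions of all 4 lists and 1.01% of all regions. For the strict regions the shares were 13.1% and 0.439%. Among all peaks no wider than 1500 bp, 25 of Foxa3-N1 (0.328%) and 97 of Foxa3-N2 (0.586%) met the Hnf4alpha-antibody list. Those of Foxa3-C1 numbered 161 (2.14%) and those of Foxa3-C2 89 (2.48%). The sides thus differed less by list than by side-only regions. N-side-only regions need a Foxa3-N1 peak, and Foxa3-N1 had the lowest share that met the Hnf4alpha-antibody list. Whether this bears on the difference between the side-only classes was not tested. Of those 47 regions, 13 lay on chromosome 13 and 7 on chromosome 11. Without the regions that met this list, 329 C-side-only and 1865 N-side-only regions were left, and the 4 Foxa constructs held 14%, 35.3%, 4.86% and 38.3% of the C-side-only ones in Foxa1-C3, Foxa2-C3, Foxa1-N3 and Foxa2-N3. The order of the sides in these 4 lists was thus the same without them. Of the first 20 strict C-side-only regions by rank 6 met this list (30%; 14.5 to 51.9%), of the next 80 regions 8 (10%; 5.15 to 18.5%) and of the last 152 regions 19 (12.5%; 8.15 to 18.7%). The share was highest in the first 20, but the intervals overlap and a trend with rank was not tested.

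Above 1000 bp the lists with most wide peaks lay on opposite sides, and above 1500 bp, where few peaks were left, on the C side. Peaks wider than 1000 bp numbered 20 in Foxa3-N1 (0.262%), 106 in Foxa3-N2 (0.641%), 99 in Foxa3-C1 (1.31%) and 15 in Foxa3-C2 (0.417%). The mean share was 0.414 percentage points higher on the C side (exact permutation p = 0.667, 2 lists against 2), but the difference was -0.0342 points without Foxa3-C1. At equal length it was -0.181 points (exact permutation p = 0.667), with 20, 83, 75 and 15 wide peaks. The narrowest peak was 295 bp in Foxa3-N1, 275 bp in Foxa3-N2, 325 bp in Foxa3-C1 and 272 bp in Foxa3-C2, so the width scale differs between lists.

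How often wide peaks of 1 side met a peak of the other differed by list. Of the 20 in Foxa3-N1, 19 met a Foxa3-C1 peak, as did 79 of the 106 in Foxa3-N2. Among all peaks of these lists, 51.8% and 27.5% did. Of the 99 in Foxa3-C1, 62 met a Foxa3-N2 peak and 36 a Foxa3-N1 peak, against 60.2% and 52.4% of all its peaks. Of the 15 in Foxa3-C2, 10 and 4 did, against 76.8% and 71.3% of all its peaks. Most places were wide in 1 list: 9 in Foxa3-N1, 90 in Foxa3-N2, 74 in Foxa3-C1 and 4 in Foxa3-C2. Within a side, 3 were wide in Foxa3-N1 and Foxa3-N2 and in no other, and 9 in Foxa3-C1 and Foxa3-C2 and in no other. Foxa3-C2 thus had more wide places in common with Foxa3-C1 than alone. What the wide peaks met in the Hnf4alpha-antibody list differed by list. Of the wide peaks, 1 of 20 in Foxa3-N1, 6 of 106 in Foxa3-N2, 37 of 99 in Foxa3-C1 and 9 of 15 in Foxa3-C2 overlapped the Hnf4alpha-antibody list. Merged, the wide peaks made 205 regions, of which 87 were wide only on the C side and 102 only on the N side. The Hnf4alpha-antibody list met 36 of the 87 and 3 of the 102, and 25 of the 87 lay on chromosome 13 against 5 of the 102. Without peaks that overlap that list the difference in share of wide peaks was 0.0774 percentage points (exact permutation p = 1). Wide peaks over 1500 bp numbered 0, 2, 15 and 3 in Foxa3-N1, Foxa3-N2, Foxa3-C1 and Foxa3-C2, or 0%, 0.0121%, 0.199% and 0.0835%. At this width the shares of the sides did not overlap (difference 0.135 points; exact permutation p = 0.333, the smallest possible, 2 lists against 2). The Wilson intervals of Foxa3-N2 (0.00332 to 0.0441%) and Foxa3-C2 (0.0284 to 0.245%) do overlap, and they rest on 2 and 3 peaks. Above 800 bp the shares of the sides overlapped, with 1.29%, 2.54%, 3.65% and 1.28% in Foxa3-N1, Foxa3-N2, Foxa3-C1 and Foxa3-C2.

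**Figure D5:**
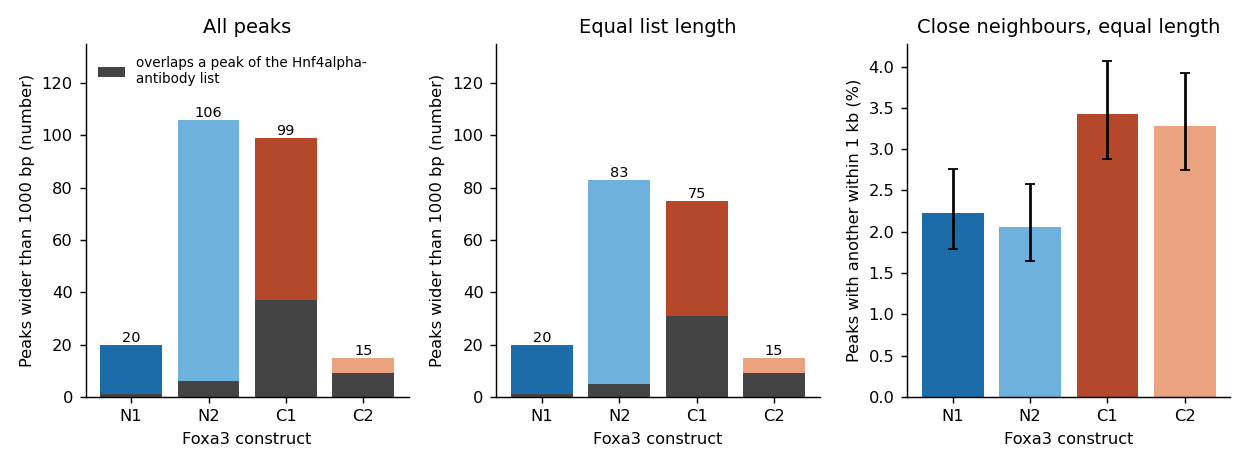
Left and middle, number of peaks wider than 1000 bp in each Foxa3 list with all peaks and at equal length; the dark part of a bar counts those that overlap a peak of the Hnf4alpha-antibody list (37 of 99 in Foxa3-C1 and 9 of 15 in Foxa3-C2, against 1 of 20 and 6 of 106 on the N side). Right, share of peaks with another peak of the same list within 1 kb at equal length, with 95% Wilson intervals; both C-side values (3.42% and 3.28%) lie above both N-side values (2.23% and 2.06%).

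The widest peaks of both C-side lists were at the same place on chromosome 19. Foxa3-C1 had a peak of 6164 bp there (5839516 to 5845679; rank 365) and Foxa3-C2 a peak of 5032 bp (5840662 to 5845693; rank 452). Foxa3-N1 had no peak there and Foxa3-N2 one of 357 bp at rank 14303, whereas Foxa2-N3 had 2440 bp and the Hnf4alpha-antibody list 1505 bp at its rank 6. The next widest Foxa3-C2 peak, on chromosome 7 (149760311 to 149761966; 1656 bp), was matched by 1728 bp in Foxa3-C1 and 1406 bp in Foxa2-N3 and by none on the N side. By contrast, the next widest Foxa3-C1 peak, on chromosome 13 (21924457 to 21926848; 2392 bp, rank 4126), was in no other list. No gene is named for these places, since no annotation of the files' build was used here.

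On the N side the widest peaks of the lists lay at different places. Those of Foxa3-N1 lay on chromosome 2 (59057888 to 59059284; 1397 bp) and chromosome 5 (99665401 to 99666709; 1309 bp). The peak on chromosome 5 was about as wide in Foxa3-N2 and Foxa3-C1 (1385 and 1307 bp) and 449 bp in Foxa3-C2. Those of Foxa3-N2, on chromosome 9 (3035566 to 3038366; 2801 bp, rank 8011) and chromosome 7 (77768969 to 77770590; 1622 bp, rank 10456), were in no other list of the series.

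Clustering was highest in the longest list and lowest in the shortest, but Foxa3-C1 exceeded the slightly longer Foxa3-N1. With all peaks, 24.9% of Foxa3-N1, 43.1% of Foxa3-N2, 28.4% of Foxa3-C1 and 17.1% of Foxa3-C2 peaks had another peak of the same list within 10 kb, a difference of -11.3 points, C side minus N side (exact permutation p = 0.667). Without Foxa3-N2 it was -2.18 points. At equal length the shares were 14.5%, 17.5%, 18.4% and 17.1%, which turned the difference to 1.71 points higher on the C side (exact permutation p = 0.667).

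Neighbours within 1 kb at equal length did not overlap between the sides. The shares were 2.23% (1.79 to 2.76%) and 2.06% (1.64 to 2.58%) in Foxa3-N1 and Foxa3-N2, and 3.42% (2.88 to 4.07%) and 3.28% (2.75 to 3.92%) in Foxa3-C1 and Foxa3-C2. The difference of 1.21 points had the smallest exact permutation p that 2 lists against 2 allow, 0.333, and this was 1 of 3 distances at 2 list lengths. Without peaks that overlap the Hnf4alpha-antibody list it was 0.637 points, with 2.23% and 2.08% against 3.19% and 2.4%.

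The densest windows of 100 kb showed where close peaks lay. On the C side the densest was chromosome 13 from 23.6 to 23.7 Mb, with 14 peaks in Foxa3-C1 and 10 in Foxa3-C2. Foxa3-N1 had 0 peaks there and Foxa3-N2 11, so presence in this window did not divide the sides. Chromosome 13 from 21.8 to 21.9 Mb held 12 and 7 peaks on the C side and 1 and 3 on the N side. Chromosome 19 from 5.8 to 5.9 Mb, tied as second densest of Foxa3-C1, held 12 and 4 on the C side and 0 and 7 on the N side. The Hnf4alpha-antibody list had 5, 3 and 12 peaks in these windows.

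Over chromosome 13 from 21 to 24 Mb, a span chosen after its values were seen, Foxa3-N1 had 8 peaks, Foxa3-N2 31, Foxa3-C1 53 and Foxa3-C2 30. This span held 15 of the 376 C-side-only regions and 1 of the 1874 N-side-only regions. It held 66 of all 21225 regions and 2 of the 2042 regions of all 4 lists. The dense windows of Foxa3-N1 were of another kind. On chromosome 5 from 90.8 to 90.9 Mb there were 9, 11, 8 and 5 peaks in Foxa3-N1, Foxa3-N2, Foxa3-C1 and Foxa3-C2, on chromosome 10 from 96.1 to 96.2 Mb 8, 11, 6 and 3, and on chromosome 13 from 9.0 to 9.1 Mb 8, 10, 5 and 5. Both sides were dense there, and the Hnf4alpha-antibody list had 0 peaks in all 3 windows.

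The densest window of Foxa3-N2 stood apart. Chromosome 9 from 3.0 to 3.1 Mb held 38 of its peaks, 1 of Foxa3-C1 and 0 of the other 2 Foxa3 lists, and these peaks ranked from 4503 to 16217. Several windows tied next with 11 Foxa3-N2 peaks, among them those named above on chromosomes 5, 10 and 13 (23.6 to 23.7 Mb). Of the tied windows, only that on chromosome 6 from 47.6 to 47.7 Mb had 0 peaks in the 8 other lists. The remaining ones held, in Foxa3-N1, Foxa3-C1 and Foxa3-C2, 1, 5 and 1 peaks on chromosome 10 (24.1 to 24.2 Mb). They held 4, 3 and 1 on chromosome 16 (25.4 to 25.5 Mb) and 3, 3 and 1 on chromosome 7 (86.4 to 86.5 Mb). Neither the chromosome 9 nor the chromosome 6 window adds to the N-side-only regions, which need a Foxa3-N1 peak.

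Side-only regions lay near the sites that all 4 constructs held about as often as most regions of 1 list did. N-side-only regions did so more often than regions of Foxa3-N1 alone. Of the N-side-only regions, 6.72% (5.68 to 7.95%) lay within 10 kb of a region of all 4 lists, and of the C-side-only regions 6.38% (4.33 to 9.32%). Among regions of 1 list the shares were 4.43% for Foxa3-N1 (3.5 to 5.59%) and 6.39% for Foxa3-N2 (5.92 to 6.89%). They were 7.34% for Foxa3-C1 (6.27 to 8.56%) and 5.45% for Foxa3-C2 (2.9 to 10%). The interval of Foxa3-N1 alone lay below that of the N-side-only regions, and the others overlapped those of both side-only classes. Chromosome 13 held 9.57% of the C-side-only regions, 4.38% of the N-side-only ones and 5.47% of all regions. Both classes were spread over 20 chromosomes.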

How the data were processed

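The authors deposited 1 list per ChIP library with the position, name and score of each peak, on mm9. Per the submitters' processing notes the tools were BWA (0.6.2), MACS2 (2.1.0) and bedtools (2.16.2). What the deposited score is, how the caller was set and how inputs served are points not given in the sources used here. For this reason scores only ranked or filtered peaks. Starts are printed counting from 1.

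Peaks overlapping by 1 bp were merged with Python 3.11.15 and pandas 2.3.3, and counts were checked against bedtools 2.31.1 and tested on simulated data. An exact two-sided permutation test over lists compared the sides (scipy 1.17.1). Shares have 95% Wilson intervals. With 1 library per construct, p-values reflect only the spread between these lists, which may be technical.

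Named regions are the 3 strict side-only regions per side with the best worse rank, the 3 largest rank gaps per direction (worst rank of the better side against the best of the other), the 5 best mean ranks, and per list the 2 widest peaks and 2 densest windows, ties included. The members and rules were chosen with earlier results of these data known. Sequence features and genes of regions were not analysed here, for want of a genome of this build.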

Additional observations from a re-analysis of the deposited data

Results flagged for a closer look

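The library with the Hnf4alpha antibody entered no comparison of the sides. Its peaks met 12.5% of the C-side-only regions, above the 1.01% of all regions of the 4 Foxa3 lists and the 0.48% of N-side-only regions. By list the shares lay closer, from 0.328% in Foxa3-N1 to 2.48% in Foxa3-C2 among all peaks no wider than 1500 bp. The labels of the Hnf4alpha-antibody library conflict on the construct it carries, and its own input was not analysed here. No group held 4 or more lists, so no list was tested for standing apart from its group.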

How the results depend on the processing

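Merging within 1 kb, absence judged within 1 kb and reciprocal overlap of 50% left every count they were applied to within 1.5 times its reported value. Above the pooled median score there were 158 C-side-only regions with all peaks, and 90 and 43 regions with better ranks on the N and C side. With 1797 peaks a list, N-side-only and C-side-only regions numbered 219 and 349, and those rank counts were 124 and 79. Absence judged in the full lists gave 228 and 252. The share of wide peaks (-0.181 points) and of clustered peaks (1.71 points within 10 kb, and 1.21 within 1 kb, chosen after seeing the data) changed sign at equal length. Leaving out 1 list leaves a side with 1 list, so its class needs presence in 1 list or absence from 1. Counts then ran, with all peaks, from 2120 to 11584 (N side) and 561 to 2382 (C side), and at equal length from 584 to 1738 and 743 to 1549. Without Foxa3-C2 the order with all peaks turned (2120 N-side-only, 2382 C-side-only). Without either N-side list the order at equal length turned (1738 and 1067 without Foxa3-N1, 1304 and 743 without Foxa3-N2). At equal length the side left with 1 list had the higher count each time, so these turns cannot show dependence on single lists. Rank counts ran from 440 to 563 and 315 to 508, the Jaccard difference from 0.0263 to 0.181, and the wide share from -0.0342 to 0.863 points. The causes were not tested beyond list number and length. Leaving out peaks that meet the Hnf4alpha-antibody list, also chosen after seeing the data, left 1865 and 329 regions with all peaks and 409 and 567 at equal length. No paired analysis was possible because every library has replicate number 1, so no numbers pair them. Set side by side by partner protein, the wide share differed (C side minus N side) by 1.05 points with Foxa1 and -0.223 with Foxa2, and the clustered share by 3.5 and -26.1 points. Depth is unknown, so absence of a peak is not absence of binding.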

Other observations

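Foxa3-N2 held sets of peaks that few other lists met, chosen after their values were seen. On chromosome 9, its 38 peaks between 3000019 and 3038366 covered 25454 bp of a span of 38.3 kb, and the first of them had the lowest start of any peak of the 4 lists. Of these 38 peaks 1 met a Foxa3-C1 peak and none met a peak of the 7 other lists. On chromosome 6, 18 of its peaks lay between 47604844 and 47743347, and 12 of their 17 spacings were 4.0 to 4.6 kb. The 8 other lists together had 3 peaks in that span: 2 of the 18 met a Foxa2-C3 peak and 1 a Foxa3-C2 peak. Of these 18 peaks 2 were among the 3594 strongest of Foxa3-N2.

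At equal length chromosome 6 held 8.82% of the Foxa3-N2 peaks (95% Wilson interval 7.94 to 9.79%), against 6.12% in Foxa3-N1, 6.18% in Foxa3-C1 and 6.71% in Foxa3-C2. Without the regularly spaced peaks the Foxa3-N2 share was 8.76%. Its interval does not overlap those of Foxa3-N1 (5.38 to 6.95%), Foxa3-C1 (5.44 to 7.01%) or Foxa3-C2 (5.93 to 7.57%), but it does overlap those of Foxa2-N3 (7.79%; 6.96 to 8.71%) and of the shorter list of Foxa1-N3 (8.58%; 6.96 to 10.5%).

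Regions held by 1 Foxa3 list differed in how often other constructs held them. Of the 9707 regions of Foxa3-N2 alone, Foxa2-C3, mapped with the same antibody, held 37% (36 to 37.9%) and Foxa2-N3 3.72% (3.36 to 4.11%). Of the 1512 regions of Foxa3-N1 alone, Foxa2-C3 held 17.9% (16.1 to 19.9%), Foxa2-N3 12% (10.5 to 13.8%) and Foxa1-C3, mapped with the same antibody, 5.56% (4.51 to 6.83%). Of the 2004 regions of Foxa3-C1 alone, Foxa2-C3 held 24.3% (22.5 to 26.2%) and Foxa2-N3, mapped with the same antibody, 10.7% (9.45 to 12.2%). Of all regions, Foxa2-C3 held 49.5%, Foxa2-N3 22.3% and Foxa1-C3 20.7%. Every share given here for regions of 1 list was lower, also in the lists with the same antibody. Foxa2-C3 is the longest of the other lists, with 13715 peaks, and these shares were not adjusted for list length.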
